A study of Mus musculus with 10 samples.

Results

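Desmosomes hold the keratinocytes of the epidermis together, and the RNA levels of 10 of their genes were followed here in murine keratinocytes and CD8+ T cells that had been cultured apart or together. The genes were found by their symbols in the tables of all 10 libraries, among 25814 genes in all. They are the desmogleins Dsg1a, Dsg2, and Dsg3, the desmocollins Dsc1, Dsc2, and Dsc3, the plaque genes Dsp, Pkp1, and Jup, and the corneodesmosin gene Cdsn. RNA was sequenced from 5 groups of 2 libraries each. The paper isolated keratinocytes from the tails of adult mice or the skin of newborn mice, and its sequencing methods do not say which were used. The cells had been kept in serum-free keratinocyte medium (SFM) with a low concentration of Ca++. They were lysed either without contact to T cells (keratinocytes alone) or after they had been kept together with CD8+ T cells, which were washed off first (co-cultured keratinocytes). The T cells came from spleen, were bound by CD8 microbeads, and were pre-activated with antibodies against CD3 and CD28 in X-VIVO medium for 1 d. They were collected directly (activated T cells), after 1 further day without keratinocytes (T cells in mixed medium), or after co-culture (co-cultured T cells). The labels name keratinocyte medium and the methods a mix of SFM and X-VIVO for the former. The sample titles give 1 d for the co-culture and the design text gives 1 h. All cells were from mice without a named genetic change, and the titles give the same time for both groups of T cells that were kept on after activation. According to the methods the co-cultures contained the mixed medium as well, whereas keratinocytes were otherwise maintained in SFM, so that medium and contact with T cells cannot be told apart in the comparison of both keratinocyte groups. The low Ca++ concentration is a limit of this model, as Ca++ is needed for the adhesion of cadherins and for the stratification of keratinocytes.

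In a desmosome, the extracellular parts of desmogleins and desmocollins, which are cadherins, bind to those of the neighboring cell. Inside the cell, plakoglobin (encoded by Jup) and plakophilins (such as Pkp1) bind to the tails of these cadherins, and desmoplakin (Dsp) links them to the keratin filaments. The cadherins differ between the layers of the epidermis, with Dsg3 and Dsc3 strongest in the basal and lower layers and Dsg1 and Dsc1 strongest in the upper, differentiated layers. In the uppermost layers desmosomes become corneodesmosomes by the addition of corneodesmosin, which is degraded by kallikrein proteases when corneocytes are shed. Antibodies against DSG1 and DSG3 cause the blistering diseases pemphigus foliaceus and pemphigus vulgaris.

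The 250 bases before the transcription start are shown for Dsp, Jup, and Cdsn, since 2 plaque genes with high levels and the corneodesmosomal gene, which stood apart in the T-cell libraries, can be compared in this way. The sequences are from RefSeq (GRCm38.p6), whose table holds 3 of the 10 members. All coordinates are those of GRCm38, and the sequences are written 5′ to 3′ on the strand of the gene. Capitals mark matches, on either strand, to the GC box (GGGCGG). The Dsp sequence is chr13:38151044-38151293 (plus strand), the Jup sequence chr11:100397791-100398040 (minus strand), and the Cdsn sequence chr17:35551878-35552127 (plus strand).
Dsp: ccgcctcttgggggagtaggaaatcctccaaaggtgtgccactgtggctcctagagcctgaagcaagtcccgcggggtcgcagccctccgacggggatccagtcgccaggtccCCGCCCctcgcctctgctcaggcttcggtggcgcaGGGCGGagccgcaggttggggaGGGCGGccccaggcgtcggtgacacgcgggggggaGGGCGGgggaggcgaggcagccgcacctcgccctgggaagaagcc
Jup: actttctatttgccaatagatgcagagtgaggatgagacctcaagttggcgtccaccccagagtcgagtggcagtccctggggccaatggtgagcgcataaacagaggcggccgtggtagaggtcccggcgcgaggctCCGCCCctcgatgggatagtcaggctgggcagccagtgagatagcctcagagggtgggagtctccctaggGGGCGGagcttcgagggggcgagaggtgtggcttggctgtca
Cdsn: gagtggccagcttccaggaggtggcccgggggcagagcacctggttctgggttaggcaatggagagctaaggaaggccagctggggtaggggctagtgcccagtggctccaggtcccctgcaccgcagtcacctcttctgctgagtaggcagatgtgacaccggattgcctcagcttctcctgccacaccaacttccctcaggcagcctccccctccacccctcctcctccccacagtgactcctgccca
Dsp held 4 and Jup 2 matches to the GC box, which is found in 32.7% of 32851 promoter sequences of this length. No TATA box (TATAAA, 12.4% of all promoters) and no AP-1 motif (TGANTCA, 6.75%) was matched in these 3 sequences, and the Cdsn sequence held none of these 3 motifs. These matches describe letters only and say nothing on whether a factor was bound.

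Dsp lies on chr13:38151294-38198577 (plus strand, 26 exons), Pkp1 on chr1:135871395-135919207 (minus strand, 19 exons), Jup on chr11:100368958-100397763 (minus strand, 16 exons), and Cdsn on chr17:35552128-35557180 (plus strand, 2 exons). The exons of the 10 genes sum to between 2.68 kb (Cdsn) and 9.59 kb (Dsp). In the GENCODE vM21 annotation, antisense genes overlap 3.99% of the exon bases of Dsg2 and 5.17% of those of Dsp, and the exons of no other member are overlapped by those of another gene. The kit is not described as one that keeps the strand, so that reads from these stretches cannot be assigned to one of both strands.

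Per library, 12864931 to 18019609 reads were counted on exons, of which 78.2% to 87.2% mapped uniquely. Levels are given as RPKM, in which reads are scaled by the exon length in kb and by the mapped reads of the library. The 2 libraries of each group differed far beyond sampling noise (chi-square per degree of freedom from 89.1 to 199), but nothing says whether they came from separate mice, so that p-values measure only the spread between these libraries. The defining markers of keratinocytes were high in keratinocyte libraries, with summed levels of 11057 and 11861 RPKM for 6 basal markers in keratinocytes alone. T-cell markers were detected as well. The summed level of 8 T-cell markers was 109.6 (replicate 1) and 434 RPKM (replicate 2) in keratinocytes alone, 142 (replicate 1) and 778 RPKM (replicate 2) in co-cultured keratinocytes, and 1198 to 2771 RPKM in T-cell libraries. Thus replicate 2 of both keratinocyte groups held more T-cell RNA by these markers than replicate 1. In keratinocyte libraries these sums came mostly from markers other than Cd8a and Cd8b1. The means of Cd8a and Cd8b1 were under 1 RPKM in keratinocytes alone and reached 235% and 287% of this after co-culture. Cd3g, Cd3d, and Cd4 were at means of 80.4, 42.6, and 27.5 RPKM in keratinocytes alone. Markers of other leukocytes moved with the summed T-cell markers. The summed level of myeloid markers was 6.88 and 28.4 RPKM in keratinocytes alone and 7.64 and 39.4 RPKM after co-culture, mostly from Lyz2, while the Langerhans cell marker Cd207 was at 0 reads. Of the endothelial markers, Cdh5 was at 0 reads in the 4 keratinocyte libraries and Pecam1, which leukocytes express as well, at up to 2.67 RPKM, and the summed levels of fibroblast and melanocyte markers did not exceed 2.31 and 20.1 RPKM, respectively.

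In keratinocytes alone the 10 genes covered a wide range of levels, and in activated T cells they were absent or nearly so. The plaque genes were the most abundant. Jup was at 824 and 715 RPKM (769.7 ± 77.1, mean ± SD, n = 2 for all means), Pkp1 at 653 and 538 (596 ± 81.4), and Dsp at 581 and 459 (520.2 ± 85.9). Cdsn followed at 311 and 433 RPKM (372 ± 86.4). The genes of the 6 cadherins lie next to each other on chromosome 18, between 19960930 and 20604521, the desmocollins on the minus strand and the desmogleins on the plus strand. Of these, Dsg3, Dsc2, and Dsc3, which predominate in basal and lower layers or in many epithelia, were at 186 ± 11.5, 181 ± 35.2, and 161 ± 4.05 RPKM. Dsg1a and Dsc1 of the upper layers were far lower, at 19.6 ± 15.9 and 5.78 ± 3.93 RPKM, as was Dsg2, the desmoglein of simple epithelia, at 4.33 ± 0.808 RPKM. The levels of Pkp1 and Dsp overlapped between libraries, as did those of Dsc2 with both Dsg3 and Dsc3, and those of Dsg1a and Dsc1 and of Dsc1 and Dsg2. Jup, Cdsn, and these sets did not overlap with their neighbors in this order. Replicate 2 held 3.70 times the Dsg1a level and 2.85 times the Dsc1 level of replicate 1. For the other members the higher of both libraries was at most 1.39 times the lower.

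Keratinocytes alone had higher levels of all 10 members than activated T cells in edgeR's quasi-likelihood test (adjusted p under 0.05), which called 25.6% of 12666 genes in this direction. Adjusted p-values (Benjamini-Hochberg) were between 0.000508 and 0.00296. Most members entered this test through the keratinocyte libraries, where they were high, so that neither this count nor these p-values are support. For genes with 0 reads in both libraries of activated T cells, folds are lower bounds against a floor of 3 reads over the group. Thereby Dsc3 was at least 8973-fold, Dsg3 at least 7898-fold, Dsg1a at least 1108-fold, and Dsc1 at least 254-fold higher in keratinocytes. Jup, with 56 reads in activated T cells, was the member with the highest level there, at 0.351 and 0.798 RPKM. Its fold was 1371 (95% interval 1056 to 1815, counting error only). Plakoglobin is also a component of adherens junctions and is not restricted to epithelia.

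**Figure D1:**
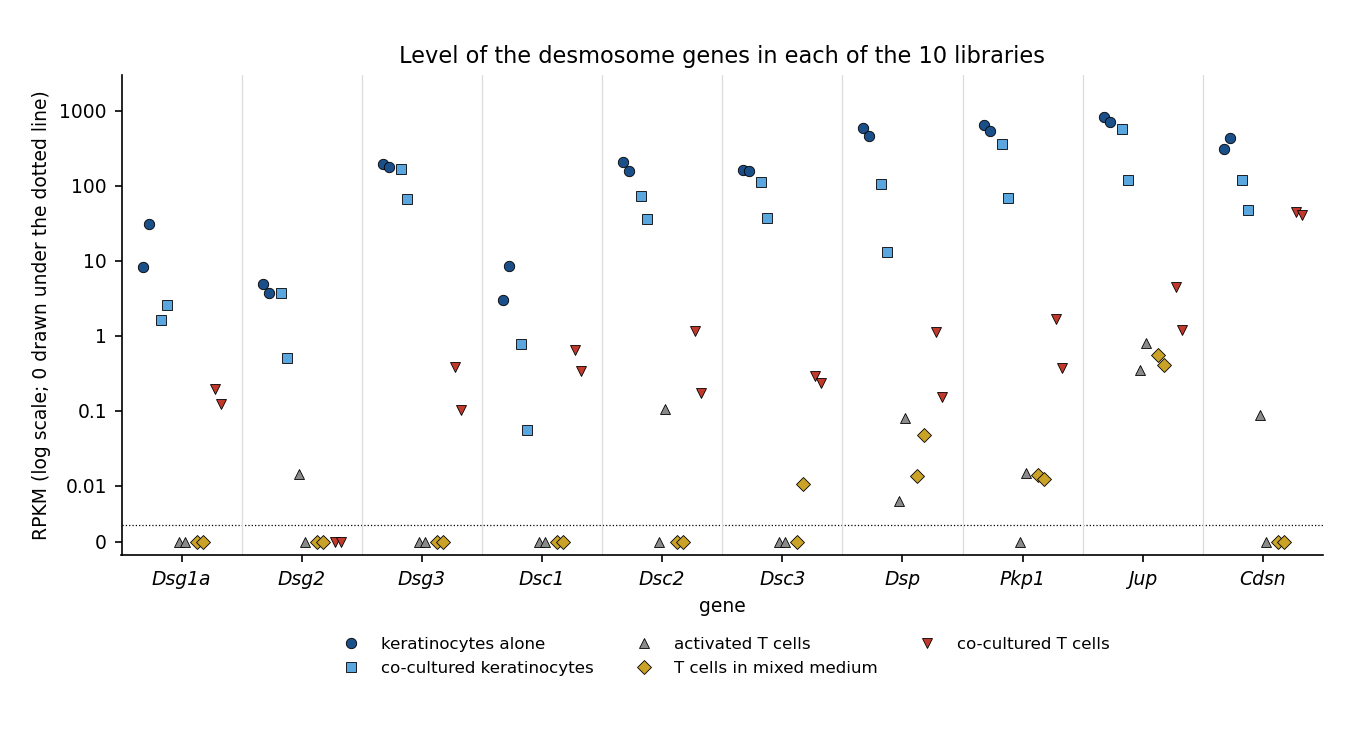
RPKM (log scale) of the 10 desmosome genes in each library, with 2 points per group and values of 0 drawn under the dotted line. In keratinocytes, levels ranged from 0.0552 (Dsc1, co-cultured) to 824 RPKM (Jup, alone), and in T-cell libraries without keratinocytes no member exceeded 0.798 RPKM, whereas Cdsn reached 45.0 and 40.2 RPKM in co-cultured T cells.

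The first comparison asks what the co-culture with CD8+ T cells, which also brought X-VIVO medium to the cells, does to keratinocytes. The levels of all 10 desmosome genes were lower in both co-cultured libraries than in both libraries of keratinocytes alone. The share of the mean level that was left after co-culture differed widely, from 7.22% (Dsc1), 10.9% (Dsg1a), and 11.4% (Dsp) to 62.3% (Dsg3). None passed an adjusted p under 0.05 in edgeR's quasi-likelihood test (adjusted p between 0.658 and 0.720), and neither did any of the 12515 genes tested (0%). At an unadjusted p under 0.05, 5 members were lower (Dsg1a, Dsc1, Dsc2, Dsp, and Cdsn), against 4.12% of all genes tested. Groups without overlap and with lower levels in co-culture were found for 10 of 10 members and for 24.3% of all genes. DESeq2 called the same 5 members, against 0.783% of all genes. The median log2 fold change of the members was -1.56, and that of all genes tested was 0.02. With 2 libraries per group, the smallest two-sided p of an exact permutation test is 0.333.

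Among desmogleins, Dsg1a was at 8.32 and 30.8 RPKM in the libraries alone and at 1.63 and 2.61 RPKM in those with T cells. Both co-cultured libraries were thus below the lower of the libraries alone, although these differed much (log2 fold change -3.13 ± 0.77, standard error). Its unique reads made up 68.1% to 77.6% of its reads in keratinocytes, since Dsg1b and Dsg1c are near-identical copies in the neighborhood, and the split of reads among the 3 genes is uncertain. Their summed reads were 3438 and 5768 in keratinocytes alone and 707 and 383 after co-culture. The sum was lower in both co-cultured libraries, as was Dsg1a. Dsg3, the pemphigus vulgaris antigen, was at 195 and 178 RPKM without T cells and at 166 and 65.8 RPKM with them (log2 fold change -0.64 ± 0.49). Replicate 1 of the co-culture was only 6.61% below the lower library alone, and the difference came mostly from replicate 2. Dsg2 was at 4.90 and 3.76 RPKM without T cells and at 3.73 and 0.513 RPKM with them (log2 fold change -1.0 ± 0.87). Here replicate 1 was at the edge of the libraries alone, 0.677% below the lower of them.

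The desmocollins are the partners of desmogleins in the intercellular space. Dsc1, expressed in the upper layers, was at 3.0 and 8.56 RPKM in the libraries alone and at 0.779 and 0.0552 RPKM in those with T cells (log2 fold change -3.79 ± 1.24). This was the lowest share of all members, but it rests on few reads, 52 and 4 in the co-cultured libraries. Dsc2, which is expressed in many epithelia, was at 206 and 156 RPKM without T cells and at 73.7 and 36.1 RPKM with them (log2 fold change -1.67 ± 0.44). Its groups were separated by a gap of 52.9% of the lower library alone, and its standard error was the smallest of all members. Dsc3 was at 164 and 158 RPKM without T cells and at 114 and 37.2 RPKM with them (log2 fold change -1.06 ± 0.56). As for Dsg3, most of its difference came from replicate 2.

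Of the plaque genes, Dsp, which links the plaque to keratin filaments, was at 581 and 459 RPKM in the libraries alone and at 106 and 13.04 RPKM in those with T cells (log2 fold change -3.11 ± 1.01). Replicate 1 of the co-culture was 77.0% below the lower library alone, the widest gap of all members. Both co-cultured libraries differed 8.10-fold from each other. Pkp1, the plakophilin of the suprabasal layers, was at 653 and 538 RPKM without T cells and at 356 and 69.9 RPKM with them (log2 fold change -1.46 ± 0.78). Jup was at 824 and 715 RPKM without T cells and at 574 and 119 RPKM with them (log2 fold change -1.12 ± 0.75). For both of these genes replicate 2 was far below replicate 1, which itself was below both libraries alone. In keratinocytes alone the mean level of Dsp was above those of Cdsn, Dsg3, and Dsc3, and after co-culture it was below them (59.3 ± 65.4 RPKM), although the levels of these 4 genes overlapped between both co-cultured libraries.

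Cdsn was at 311 and 433 RPKM in the libraries alone and at 119 and 47.9 RPKM in those with T cells (log2 fold change -2.12 ± 0.53). Both co-cultured libraries were low, and replicate 1 was 61.6% below the lower library alone. The corneodesmosomal proteases and their inhibitor were lower as well. For Klk5, Klk7, Klk14, and the inhibitor gene Spink5 both co-cultured libraries were below both libraries alone, and 3 of these 4 genes (Klk5, Klk7, and Spink5) had an unadjusted p under 0.05, but no adjusted p was below 0.523. Klk7 was at 54.0 and 68.7 RPKM without T cells and at 10.2 and 13.98 RPKM with them (log2 fold change -2.26 ± 0.37). Spink5 was at 257 and 283 RPKM without T cells and at 80.7 and 41.7 RPKM with them (log2 fold change -2.09 ± 0.43). As for Dsg1a, replicate 1 of the co-culture was the lower one for Klk7.

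Replicate 2 of the co-culture had the lower level for 9 of 10 members, and Dsg1a was the exception. It also held the highest summed level of T-cell markers among keratinocyte libraries (778 RPKM, compared to 142 in replicate 1). Without replicate 1 of the co-culture, edgeR's quasi-likelihood test called 8 members lower (Dsg2, Dsc1, Dsc2, Dsc3, Dsp, Pkp1, Jup, and Cdsn), against 8.06% of all genes, and the remaining library was then assumed to vary like those of the other group. Without replicate 2, 0 members and 0% of all genes were called lower, and the log2 fold changes of Dsg3 and Dsg2 were -0.18 and -0.23. Those of Dsg1a, Dsc1, Dsp, Cdsn, and Dsc2 remained between -3.60 and -1.31. Whether the T-cell RNA has a part in these differences was not tested. Fewer cells of a type and less RNA per cell cannot be told apart in these bulk samples.

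**Figure D2:**
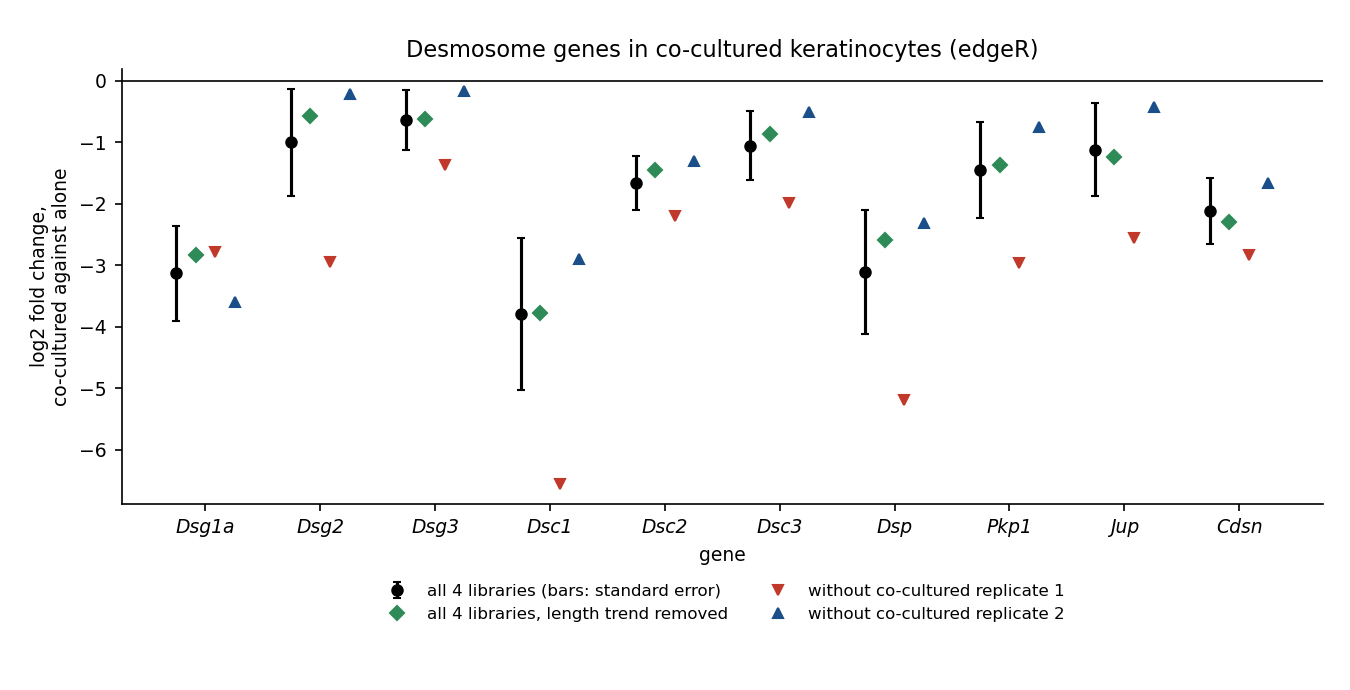
Log2 fold change of each desmosome gene between co-cultured keratinocytes and keratinocytes alone in edgeR, with all 4 libraries (bars, standard error), after removal of the length trend, and without either co-cultured library. All points are below 0, and those without replicate 2 are at -0.18 (Dsg3) and -0.23 (Dsg2) but at -3.60 for Dsg1a and -2.31 for Dsp.

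The differences between both keratinocyte groups depended on the length of the exons across all genes. The median log2 fold change was 0.38 for genes with under 1 kb of exons and -0.84 for those with 8 kb or more (Spearman's rho -0.375 across 12515 genes, which are not independent replicates). Dsp and Dsg2 belong to the longest genes, and Cdsn and Jup are the shortest members. After removal of this trend, the log2 fold changes were -2.60 for Dsp and -0.57 for Dsg2, compared to -3.11 and -1.0 with it, whereas those of Cdsn (-2.30) and Jup (-1.23) were slightly further from 0 than before. Across the 10 members alone, rho between length and log2 fold change was -0.0909. Hence Dsg2 was within the quartiles of genes of its length (-1.42 to -0.19), and Cdsn was far below those of genes with 2 to 3 kb (-0.26 to 0.56).

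**Figure D3:**
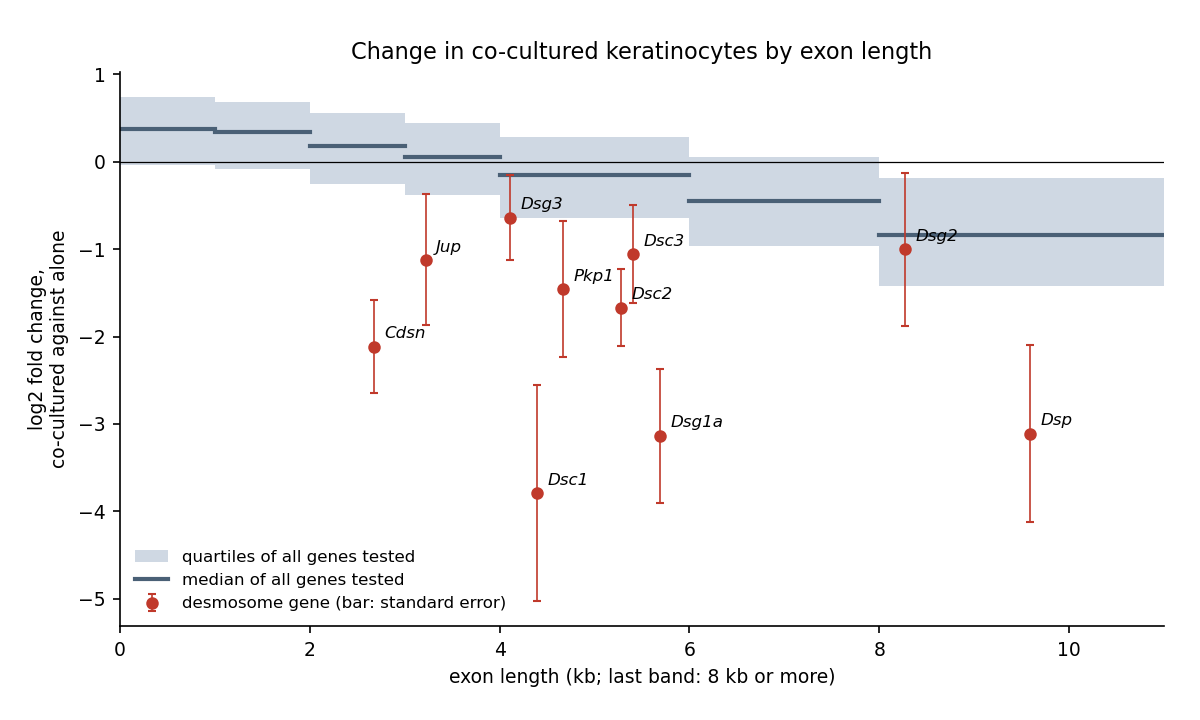
Log2 fold change between co-cultured keratinocytes and keratinocytes alone (vertical axis) against exon length in kb, with the median and quartiles of all genes tested in 7 bands of length and the 10 desmosome genes as points (bars, standard error). The median of all genes goes from 0.38 in the shortest to -0.84 in the longest band, and 8 of the members lie below the quartiles of their band, whereas Dsg3 (-0.64) and Dsg2 (-1.0) do not.

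Other genes of the desmosome did not all follow the members. Ppl and Evpl, which encode plakins of the cornified envelope, had log2 fold changes of -3.16 ± 1.46 and -2.45 ± 1.37, and Ppl was at 387 and 186 RPKM without T cells and at 61.1 and 2.23 RPKM with them. Perp, a membrane protein of desmosomes and a p63 target, was at 1980.1 and 2893 RPKM without T cells and at 1702 and 2942 RPKM with them, so that its groups overlapped (log2 fold change 0.02 ± 0.53). Pkp2 and Pkp3, the other plakophilins, had log2 fold changes of 0.64 ± 0.46 and -0.64 ± 0.40. The desmogleins Dsg1b, Dsg1c, and Dsg4 had log2 fold changes of -2.67 ± 0.72, -4.72 ± 1.54, and -1.76 ± 1.70, with fewer than 60 reads per group for Dsg1c and Dsg4. Of these 8 genes, 5 were without overlap and lower. None was called by edgeR's quasi-likelihood test, and DESeq2 called Dsg1b (log2 fold change -2.69, adjusted p = 0.0109).

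Genes of the adherens junction, which couples cells to actin, had log2 fold changes between -1.96 and -0.11, and 4 of 10 were lower without overlap, against 24.3% of all genes. Nectin1 (-1.96 ± 0.89), Afdn (-1.77 ± 0.82), Vcl (-1.20 ± 0.91), and Cdh3 (-1.06 ± 0.83) were at the lower end. Of these, Vcl overlapped between both groups. Those of the tight junction, the diffusion barrier between cells, were between -1.49 (Cgn) and 1.27 (Cldn7), and 1 of 8 was lower and 1 higher without overlap, against 24.3% and 19.8% of all genes. No gene of both lists was called by edgeR's quasi-likelihood test. The basal markers had a median log2 fold change of -0.57, and their summed level was 12690 and 15706 RPKM after co-culture, above that of keratinocytes alone. This sum consisted mostly of Krt5 and Krt14, and 4 of the 6 basal markers (Trp63, Itga6, Itgb4, and Col17a1) were lower and 1 (Krt5) higher without overlap. The suprabasal markers had a median of -3.04, with lower levels without overlap for 7 of 7, and their summed level was 1036 and 1150.0 RPKM alone and 454 and 226.6 RPKM after co-culture. The part of these marker changes in the levels of the members was not tested.

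Most members had low but higher levels in co-cultured T cells than in T cells kept in mixed medium, and Cdsn had by far the highest. Cdsn was at 45.0 and 40.2 RPKM in co-cultured T cells, with 1837 and 1524 reads. In T cells in mixed medium it had 0 reads in both libraries, and in activated T cells 4 reads in replicate 1 and 0 in replicate 2. Cdsn was thus at least 1236-fold higher in co-cultured T cells than in T cells in mixed medium, taking 3 reads over the group as the floor. It was called in edgeR's quasi-likelihood test on all 6 T-cell libraries (adjusted p = 0.00637), as were 0.261% of 11863 genes in this direction. Cdsn entered this test only through the co-cultured libraries, where it was high, so that the call is no support beyond the reads themselves. The fitted log2 fold change of 13.88 ± 1.08 depends on how 0 reads are treated. Every alternative that kept the gene called it, and a minimum of 10 reads in every library removed it from the test.

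Of the other members, 8 had more RPKM in both co-cultured T-cell libraries than in both libraries in mixed medium. Dsg2 had 0 reads in these 4 libraries. Dsg2 and Dsg3 did not pass the filter on low counts, so that 8 members were tested. All of these 8, with Cdsn among them, were higher without overlap, against 14.2% of all genes tested. When only activated T cells and those in mixed medium were fitted, 1 member passed this filter. Most members thus entered the test through the co-cultured libraries, where they were high, so that neither this count nor the calls of members in this comparison are support. Pkp1 was at 1.67 and 0.378 RPKM, compared to 0.0139 and 0.0124 in mixed medium (log2 fold change 6.11 ± 1.48, adjusted p = 0.434, edgeR's quasi-likelihood test). DESeq2 called Pkp1 and Cdsn, against 0.666% of all genes. Jup was at 4.55 and 1.21 RPKM compared to 0.563 and 0.414, and Dsp at 1.12 and 0.155 compared to 0.0135 and 0.0483 RPKM. For these 3 plaque genes the first library was more than 3 times as high as the second. Dsc2 was at 1.16 and 0.174 RPKM and Dsc3 at 0.292 and 0.235 RPKM in co-cultured T cells. Dsg3 was at 0.384 and 0.103 RPKM, Dsg1a at 0.196 and 0.124 RPKM, and Dsc1 at 0.643 and 0.338 RPKM. Dsc1 was at least 23.5-fold, Dsc2 at least 39.0-fold, Dsg3 at least 11.04-fold, and Dsg1a at least 9.93-fold higher than in mixed medium.

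Compared to activated T cells, both Cdsn (log2 fold change 9.93 ± 0.81, adjusted p = 0.00322) and Pkp1 (6.98 ± 1.58, adjusted p = 0.0314) rose in co-cultured T cells in edgeR's quasi-likelihood test, in which 4.59% of all genes rose. DESeq2 called 6 members (Dsc1, Dsc3, Dsp, Pkp1, Jup, and Cdsn), against 9.45% of all genes. Again 9 of 10 members were higher without overlap. Among the genes tested these were 8 of 8 members and 23.6% of all genes. Since most members entered the test through the co-cultured libraries, neither this count nor the calls of members are support here. With 1 read of Pkp1 in both activated libraries, its ratio was 156 (95% interval 27.5 to 6201, counting error only). Pkp1 was not called without either library of activated T cells or without the first library of co-cultured T cells, whereas Cdsn was. This comparison shares the co-cultured libraries with that to T cells in mixed medium, and medium and age of the cells differ in it together with the presence of keratinocytes. Between T cells in mixed medium and activated T cells the members could hardly be compared. Jup had 51 reads in mixed medium and 56 in activated T cells (log2 fold change -0.11), and no other member had more than 12 reads in either group.

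The levels in co-cultured T cells were compared with those in keratinocytes. As percent of the mean level in keratinocytes alone, Cdsn reached 12.1% and 10.8% in both co-cultured T-cell libraries. Dsc1 reached 11.1% and 5.85%, and Dsg1a 1.00% and 0.636%. All other members were below these, with 0.181% to 0.638% in the first library and 0.0297% to 0.157% in the second for those that had reads. Thus Cdsn and Dsc1 had higher shares than Dsg3, Dsc3, and the plaque genes. For Dsg1a this depends on the uncertain split of reads with Dsg1b and Dsg1c. Dsg1b, at 37.2 RPKM in keratinocytes alone, reached 0% in the first and 0.239% in the second library. These shares were below and above those of Dsg3, Dsc3, and the plaque genes, respectively. Reads of Dsg1a, Dsg1b, and Dsg1c summed to 17 and 15 in co-cultured T cells, compared to 3438 and 5768 in keratinocytes alone. Relative to co-cultured keratinocytes, the shares were 53.9% and 48.1% for Cdsn, 154% and 81.0% for Dsc1, and 0.261% to 1.89% for Dsp. Cdsn and Dsc1 levels in co-cultured T cells thus came near to those in co-cultured keratinocytes, which were low for Dsc1.

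Shares of markers also differed between those of basal and suprabasal cells. The shares of 6 basal markers had a median of 0.331% and 0.0695% in the 2 co-cultured T-cell libraries, including Itga6, which T cells express as well. The shares of 6 suprabasal markers had a median of 8.74% and 15.0%, or 6.68% and 7.15% without Krt10 (left out after its values were seen), which was low in keratinocytes alone (1.15 RPKM) and reached 105% and 0% of this level in activated T cells and 50.6% and 100.2% in T cells in mixed medium. The suprabasal shares differed widely, with Krt1 at 0% and 2.44%, Ivl at 1.12% and 0.805%, and Lor at 41.0% and 22.9%. Flg was left out of them for its low level in keratinocytes alone. Klk7 reached 91.8% and 83.3%, Klk5 20.5% and 17.4%, and Spink5 3.18% and 4.30%. Both Klk7 and Spink5 rose in co-cultured T cells compared to T cells in mixed medium (adjusted p = 0.00519 for both), as did Perp (log2 fold change 4.35 ± 0.47, adjusted p = 0.0131), all in edgeR's quasi-likelihood test. Klk7 and Spink5 had few or no reads in the other T-cell libraries. They entered the test through the co-cultured ones, so that their calls are no support. The shares of Perp were 1.03% and 1.32%. Pkp3 reached 15.7% and 13.1%, but it was at 4.42 and 18.1 RPKM in activated T cells as well, in which no keratinocytes had been present. The 8 T-cell markers had log2 fold changes from -0.24 to -0.04 in co-cultured T cells relative to mixed medium, and none was called by edgeR. B-cell markers were lower without overlap for 4 of 4 (median log2 fold change -2.44), with summed levels of 16.6 and 27.2 RPKM in co-cultured T cells and 44.2 and 92.3 RPKM in mixed medium, and none of them was called, either. Their part in the levels of the members was not tested. Whether keratinocytes among the collected T cells account for these shares was not tested.

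**Figure D4:**
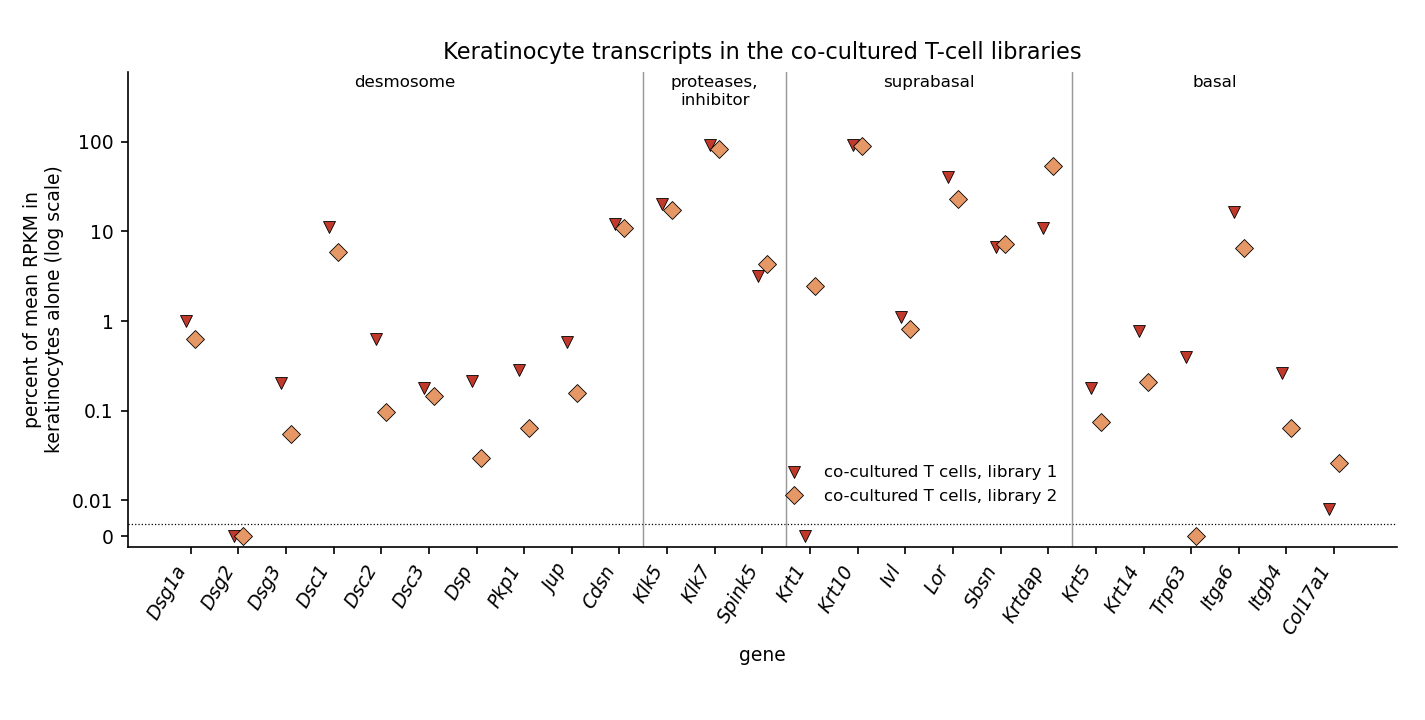
Level of the desmosome genes, of corneodesmosomal proteases and their inhibitor, and of suprabasal and basal markers in both co-cultured T-cell libraries, as percent of the mean RPKM in keratinocytes alone (log scale, 0 drawn under the dotted line). Cdsn (12.1% and 10.8%) and Dsc1 (11.1% and 5.85%) lie within the wide range of the suprabasal markers. Without Krt10 this range is 0% to 41.0% in the first library and 0.805% to 54.0% in the second. The plaque genes lie at 0.0297% to 0.591%, with most basal markers.

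With co-culture Cdsn was lower in keratinocyte libraries and higher in T-cell libraries. This difference was tested by an interaction term in a fit of 8 libraries. By the methods, medium changed with co-culture in the keratinocyte groups but not between these T-cell groups. The term thus does not compare the effect of contact alone. In the separate fits the log2 fold changes of Cdsn were -2.12 in keratinocytes (adjusted p = 0.658) and 13.88 in T cells (adjusted p = 0.00637, both edgeR's quasi-likelihood test). Whether keratinocytes among the collected T cells account for the T-cell part was not tested. The term was called for Cdsn (log2 difference, keratinocytes minus T cells, -16.07 ± 1.04, adjusted p = 0.00604, edgeR's quasi-likelihood test), as it was for 0.523% of 13202 genes in this direction. Cdsn was not alone in this. Also called in this direction were 2 of 4 genes of the corneodesmosomal proteases and their inhibitor, 2 of 7 suprabasal markers, and 1 of 8 tight junction genes. Pkp1 (-7.61 ± 1.46, adjusted p = 0.0975), Dsc3 (-6.36 ± 1.06, adjusted p = 0.0644), and Jup (-3.72 ± 1.09, adjusted p = 0.376) did not pass. DESeq2 called 9 members, with Dsg2 as the exception, and 2.24% of all genes. The sizes of these differences depend on libraries of T cells with few or no reads.

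The genes whose log2(RPKM + 1) over all 10 libraries was most like the mean profile of the 10 members were Sdr9c7, Plekhn1, Grhl1, Btbd3, and Tcim, with Pearson's r between 0.992 and 0.997. They were chosen among 7020 genes with 5 or more RPKM in keratinocytes alone, whose median r was 0.317. The 10 libraries fall into keratinocytes and T cells, and each r rests mostly on this split. Grhl1 encodes a transcription factor of epidermal differentiation, and Sdr9c7 an enzyme needed for the lipid envelope of corneocytes. The level of Grhl1 was 117 ± 0.532 RPKM in keratinocytes alone and 31.1 ± 25.98 RPKM in co-cultured keratinocytes. Among the members, Dsp was most like the mean of the other 9 (r = 0.991), and Dsc1 (0.814) and Cdsn (0.859) were least like it.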

How the data were processed

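RNA of 10 libraries (5 groups of 2) was sequenced as single-end reads after poly(A) selection and library preparation with the NEBNext Ultra II kit. The authors mapped the reads to GRCm38 with the default settings of the CLC Genomics Workbench and deposited, for each library and gene, counts of all and of uniquely mapped exon reads without normalization, counts of intron reads, and RPKM values. The annotation release and the counting options are not given in the sources used here. Groups come from the labels. Replicate numbers of the mixed-medium and co-cultured T cells are in order of accession and pair nothing.

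Members and gene lists were chosen with earlier results of these data known. From total exon reads, log2 fold changes were obtained by the quasi-likelihood test of edgeR 4.0.16 (R 4.3.3) after its filter on low counts (filterByExpr) and TMM scaling, and p-values were adjusted by Benjamini-Hochberg over all genes (threshold 0.05). The 4 keratinocyte libraries, the 6 T-cell libraries, and keratinocytes alone with activated T cells were fitted apart, and 8 libraries were used for the interaction. Against a group without reads, folds are lower bounds with 3 reads over the group as the floor. Floors and intervals (exact, 95%) cover counting error only, as reads were not marked by molecular identifiers. The percentage of reads that map uniquely is the quotient of both deposited counts.

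All members, all other desmosome genes listed, and at most 4 genes of each other list with the largest differences in keratinocytes are named, besides markers and the 5 genes most like the members. As alternatives, the reads were fitted with DESeq2 1.42.0, with scaling to library size, unfiltered, with a minimum of 10 reads in every library, from unique reads only, after removal of the length trend (a spline of 4 degrees of freedom), with the replicate number as a block, with a wider or narrower choice of libraries, and after leaving out each library. RPKM were tested with limma 3.58.1 after adding 1 or 0.1 and taking log2. All fits were tested on simulated data. Tables were made with pandas 2.3.3 and scipy 1.17.1 in Python 3.11.15, and plots with matplotlib 3.10.9. One promoter motif is not reported here.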

Additional observations from a re-analysis of the deposited data

Results flagged for a closer look

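The change of Cdsn with co-culture differed between keratinocyte and T-cell libraries by an interaction term (log2 difference -16.07, keratinocytes minus T cells, adjusted p = 0.00604 in edgeR's quasi-likelihood test). This was not particular to Cdsn. The term was also called in this direction for 2 of 4 genes of the corneodesmosomal proteases and their inhibitor and for 2 of 7 suprabasal markers, against 0.523% of all genes. Cdsn was lower in both co-cultured keratinocyte libraries (119 and 47.9 RPKM) than in both libraries alone (311 and 433 RPKM), and higher in both co-cultured T-cell libraries (45.0 and 40.2 RPKM) than in both libraries in mixed medium (0 reads). The size of the difference depends on the treatment of 0 reads. By the methods, medium differed as well between both keratinocyte groups but not between both of these T-cell groups. Whether keratinocytes among the collected T cells account for the T-cell part was not tested.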

How the results depend on the processing

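In keratinocytes, the values of the 10 members were below 0 in all 149 combinations of member and alternative, and DESeq2 called 5 members where edgeR called 0. With a library left out, edgeR called 8 (without replicate 1 of the co-culture) or 0. In co-cultured T cells compared to mixed medium (1 member called), DESeq2 called 2, no filter 4, and at least 10 reads in every library 0. Compared to activated T cells (2 called), these were 6, 5, and 0, limma on log2(RPKM + 1) called 1, and fits without a library 1 to 2. For keratinocytes alone against activated T cells, at least 10 reads in every library left 1 member to be tested, Jup, which was called. For the interaction (1 called), DESeq2 called 9, no filter 8, at least 10 reads 0, and removal of the length trend 2. Without replicate 1 of the co-cultured keratinocytes it called 4, without their replicate 2 or the second co-cultured T-cell library 2, and without any other library 1. Between mixed medium and activated T cells, where most members had few or no reads, signs were not stable. On unique reads the median of the members with reads in these groups was 0.19, against a value below 0 with all reads, and the log2 fold change of Dsp was 0.50 (-0.29 with all reads). Without a library the median ranged from -0.77 to 1.49, Dsp from -1.54 to 2.40, Jup from -0.60 to 0.66, and Pkp1 from -0.057 to 3.15. The cause was not tested. Among all genes, edgeR called 0 in co-cultured keratinocytes, 11 without a filter, 43 with block and length trend, 21 without replicate 2 and 1164 without replicate 1 of the co-culture, and DESeq2 called 186. For co-cultured T cells against mixed medium these counts were 31 (edgeR), 87 (DESeq2) and 141 (no filter), and for the interaction 76, 358 and 205.

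The labels do not say whether equal replicate numbers of both keratinocyte groups mark a shared experiment, and the main fit used no block. Same-numbered libraries deviated together (Pearson's r = 0.558 for both keratinocyte groups and 0.243 for keratinocytes alone and activated T cells, across genes). With the replicate number as a block, 0 members were called in co-cultured keratinocytes (Dsg1a had the lowest adjusted p, 0.0872, edgeR's quasi-likelihood test), also with the length trend removed (0.0501), and all 10 in keratinocytes alone against activated T cells.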
